A study of Mus musculus with 2 samples.

Results

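The 10 genes described here encode mouse Toll-like receptors and the proteins that present bacterial lipopolysaccharide (LPS) to them: Tlr1, Tlr2, Tlr3, Tlr4, Tlr7, Tlr8, Tlr9, Tlr13, Cd14 and Ly96. They were chosen by name, and all 10 were listed in both expression tables, among 19219 genes that the tables share and 21722 genes in either. Liver non-parenchymal cells (NPCs) were profiled by droplet single-cell RNA sequencing from 2 male C57BL/6 mice, 8 weeks old when injections began. The normal mouse (the quiescent state in the labels) received olive oil and the fibrotic mouse received CCl4, a hepatotoxin that produces liver fibrosis on repeated dosing, both by intraperitoneal injection 2 times a week for 6 weeks. The libraries came from collagenase-perfused livers depleted of hepatocytes, and which cells were caught depends on that depletion. Each condition was 1 mouse and 1 library, so no difference between normal and fibrotic liver could be tested, and intervals given below cover counting error only.

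Toll-like receptors are membrane proteins that recognise microbial molecules and signal through the adaptors MyD88 and TRIF to NF-kB and interferon regulatory factors. At the cell surface, TLR4 senses LPS together with MD-2 (the product of Ly96) after CD14 has delivered it, and TLR2 senses bacterial lipopeptides as a pair with TLR1 or TLR6. In endosomes, TLR3 senses double-stranded RNA, TLR7 and TLR8 single-stranded RNA, TLR9 unmethylated CpG DNA and TLR13 bacterial ribosomal RNA. In the liver these receptors face blood that drains the gut, and Kupffer cells (the resident macrophages), sinusoidal endothelial cells and hepatic stellate cells (HSCs) are all known to respond to LPS.

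After cells with over 10% mitochondrial UMIs (unique molecular identifiers, each 1 captured RNA molecule) were left out, 7471 normal cells with a median of 4226 UMIs and 6132 fibrotic cells with a median of 5775.5 UMIs were kept. The libraries shared 15 cell barcodes. Cells were clustered in each library separately without the 10 genes, and clusters were called "-like" by their markers. The myeloid-like class held 777 normal and 1021 fibrotic cells, the dendritic-like class 393 and 272, the B-like class 584 and 661, the endothelial-like class 2282 and 1702, and the stellate-like class 119 and 381. The 20 endothelial markers summed to 274 and 253 per 10000 UMIs in normal and fibrotic endothelial-like cells, and to 125 and 103 in stellate-like cells. The 16 stellate markers summed to 287 and 154 in stellate-like cells, and to 3.43 and 6.15 in endothelial-like cells. The 10 B cell markers summed to 99.2 and 52.4 in B-like cells. Clusters were named by these markers, so the sums describe the classes and do not test their names. A level below is the number of UMIs of a gene per 10000 UMIs summed over the cells of a class, with an exact 95% Poisson interval, and a ratio has an exact conditional 95% interval.

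RNA released from broken cells reaches every droplet, so NK/T-like cells (994 normal, 680 fibrotic), which are not known as a main site of these receptors, served as a reference for it. Their median depth was 3754.5 and 2596 UMIs, and whether free RNA is a like share of UMIs in deeper classes was not tested. For Tlr1 the reference is doubtful, since normal NK/T-like cells held 34 UMIs of it and the more numerous normal endothelial-like cells 11. A gene was counted as higher than in NK/T-like cells where its level was at least 2 times theirs, the interval of the ratio excluded 1 and both classes together held at least 10 UMIs. Of 9 members with enough UMIs in normal myeloid-like cells, all 9 passed, where 12.3% of all genes did. In fibrotic myeloid-like cells 8 of 9 passed (8.85% of all genes), the exception being Tlr3. In dendritic-like cells 6 of 9 passed in the normal library (10.1% of all genes) and 3 of 8 in the fibrotic one (7.47%), namely Tlr2, Tlr3 and Tlr7. In B-like cells Tlr1 and Tlr7 passed in the normal library (2 of 7 members, 5.23% of all genes) and Tlr1 in the fibrotic one (1 of 8, 3.36%). In endothelial-like cells Tlr2, Tlr3, Tlr4 and Ly96 passed in the normal library (4 of 8, 16.7% of all genes), and Tlr3, Tlr4 and Ly96 in the fibrotic one (3 of 9, 11.2%). In stellate-like cells the same 4 names as in normal endothelial-like cells passed in the normal library (4 of 7, 18.1% of all genes) and 0 of 9 passed in the fibrotic one (13.6%). In the 26 normal stellate-like cells with fewer markers of other lineages, described below, Ly96 alone passed (1 of 7, 11.8% of all genes).

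**Figure D1:**
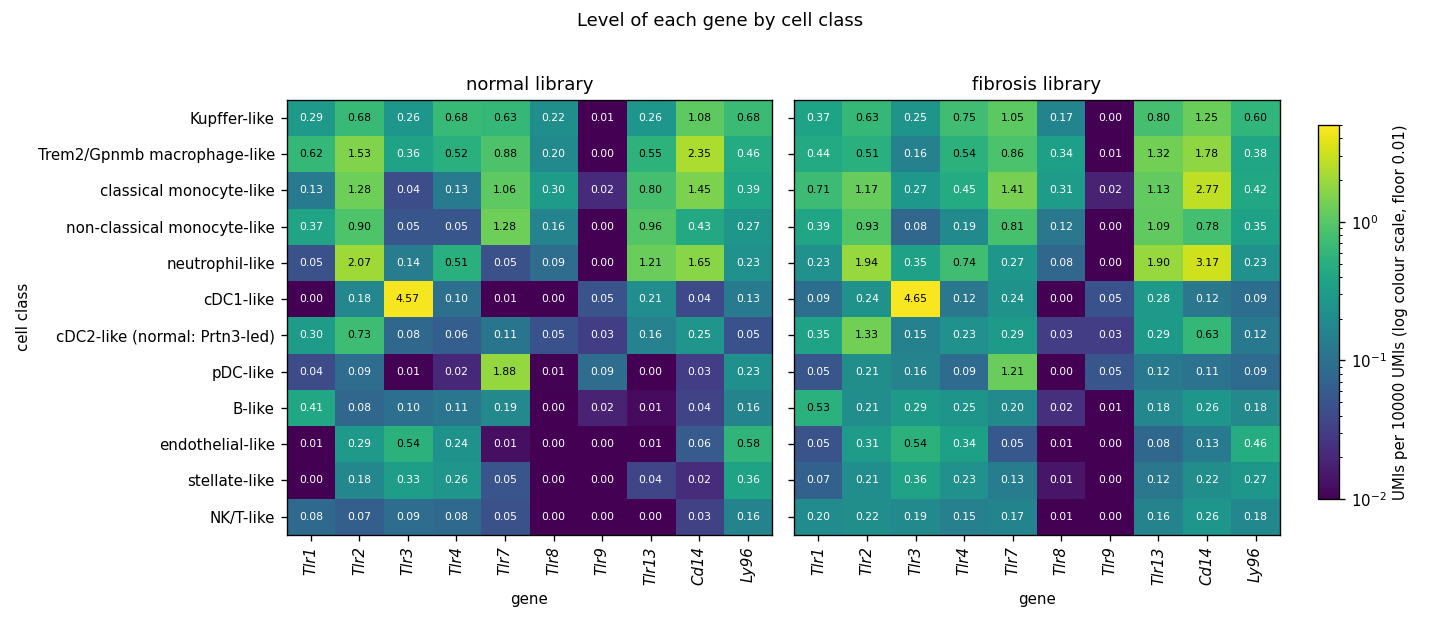
Level of each of the 10 genes (columns) in 12 cell classes (rows) of the normal and the fibrosis library, as UMIs per 10000 UMIs on a log colour scale, with the value printed in each cell of the map. Tlr3 in cDC1-like cells is the brightest cell of both maps, Cd14 is bright across the macrophage-like, classical monocyte-like and neutrophil-like rows, and the NK/T-like row is brighter in the fibrosis library.

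Tlr4 (chr4:66827584-66930284, plus strand, GRCm38) was highest in Kupffer-like cells of both libraries. Its level there was 0.681 per 10000 in the normal library (interval 0.58 to 0.794, 162 UMIs) and 0.748 in the fibrotic one (0.637 to 0.872, 163 UMIs). The next classes, Trem2/Gpnmb macrophage-like cells in the normal library and neutrophil-like cells in the fibrotic one, did not differ from it beyond the counting error, with ratios of 1.3 (0.779 to 2.33) and 1.02 (0.63 to 1.73). Endothelial-like cells stood at 0.241 per 10000 in the normal and 0.338 in the fibrotic library, against 0.0833 and 0.149 in NK/T-like cells. Kupffer-like cells were thus 2.83 times (2.32 to 3.42) and 2.21 times (1.84 to 2.65) as high as endothelial-like cells per UMI. Endothelial-like cells held 40.7% of all Tlr4 UMIs of the normal library and 28.1% of those of the fibrotic library, against 26.4% and 34.5% in myeloid-like cells. Such shares depend on the size of the class. Over all kept cells Tlr4 was at 0.19 and 0.325 per 10000, so the fibrotic endothelial-like level of 0.338 was close to that of the library. Classical monocytes are blood-derived precursors of macrophages. In cells named classical monocyte-like, Tlr4 was at 0.13 (6 UMIs) in the normal and 0.452 (98 UMIs) in the fibrotic library. Of the 256 fibrotic cells of that name 230 lay in a cluster led by Ifnb1, Ifnl2 and Ms4a7, unlike the normal one led by Chil3, F13a1 and Thbs1. The name is therefore less sure in fibrosis.

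Ly96 (chr1:16688051-16709611, plus strand) encodes MD-2, the subunit of the receptor that binds LPS itself. Its order differed from that of Tlr4. Kupffer-like cells stood at 0.685 per 10000 (163 UMIs) and zone 1 (periportal) endothelial-like cells at 0.673 (242 UMIs) in the normal library, a ratio of 1.02 (0.83 to 1.25). Of the 603 normal zone 1 cells 285 lay in a cluster whose leading genes held the haemoglobin genes Hbb-bs, Hba-a1, Hba-a2 and Hbb-bt beside the zone 1 markers Msr1 and Ntn4. Their zone is thus less sure. Endothelial-like cells as a whole were at 0.583 in the normal and 0.464 in the fibrotic library, against 0.162 and 0.183 in NK/T-like cells, and held 51.6% and 36.4% of all Ly96 UMIs. Over all kept cells Ly96 was at 0.362 and 0.344 per 10000. Levels were low in cDC1-like cells, at 0.129 and 0.0949, which is 0.221 times (0.117 to 0.38) and 0.205 times (0.0556 to 0.527) the endothelial-like level. Neutrophil-like cells, at 0.232 in both libraries, lay below Kupffer-like cells, with ratios of 0.339 (0.16 to 0.64) and 0.389 (0.14 to 0.871), whereas for Tlr4 the intervals of the same ratios, 0.75 (0.458 to 1.18) and 0.984 (0.577 to 1.59), held 1.

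Cd14 (chr18:36725067-36726798, minus strand) encodes the anchored protein that hands LPS to TLR4 and MD-2. In the normal library it was highest in Trem2/Gpnmb macrophage-like cells, at 2.35 per 10000 (1.84 to 2.96, 72 UMIs), and in the fibrotic library in a cluster of 100 cells that no marker list named. That cluster had Fn1, Olr1 and Saa3 among its leading genes and held Cd14 at 7.22 per 10000 (617 UMIs). Fibrotic classical monocyte-like cells were at 2.77 (600 UMIs), so the Fn1/Olr1 cluster was 2.61 times (2.33 to 2.92) as high. The same cluster was low in other members: Tlr7 was 0.266 times (0.179 to 0.383) and Tlr1 0.282 times (0.16 to 0.466) the classical monocyte-like level. No normal cluster had Olr1 among its 10 leading genes. Neutrophil-like cells were at 1.65 and 3.17 per 10000 in the normal and fibrotic library and Kupffer-like cells at 1.08 and 1.25. After each cell was thinned to 1000 UMIs, 9.91% (7.9 to 12.2) of normal and 21.6% (19.1 to 24.2) of fibrotic myeloid-like cells held a Cd14 UMI, against 0.201% and 2.53% of NK/T-like cells. Without thinning these shares were 31% and 61.5% in myeloid-like cells, whose median depth was 3717 and 8539 UMIs, and 1.31% and 7.21% in NK/T-like cells, at 3754.5 and 2596 UMIs.

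The sinusoid is zoned from portal to central vein, and members varied along it. In the normal library portal vessel endothelial-like cells held Tlr2 at 0.47 times (0.318 to 0.676) and Ly96 at 0.66 times (0.527 to 0.82) the level of the other zones together, and Cd14 at 2.28 times (1.3 to 3.97). Zone 2/3 (midlobular to pericentral) endothelial-like cells held Tlr2 at 1.52 times (1.16 to 1.98) and Tlr4 at 1.38 times (1.04 to 1.83) the others. In the fibrotic library the highest zone for Tlr4 was the central vein, at 0.416 per 10000 against 0.29 in the others, a ratio of 1.43 (1.08 to 1.91). The same central vein endothelial-like class was at 0.189 in the normal library, where it was not above the others. Between libraries its Tlr4 level was therefore 2.2 times as high in fibrosis (1.45 to 3.44), in a class where 6.41% of genes were at least 2 times as high with an interval above 1 and 8.88% at most 0.5 times with one below 1, while zone 1, zone 2/3 and portal vessel endothelial-like cells had ratios of 1.11 (0.738 to 1.64), 1.06 (0.746 to 1.51) and 1.09 (0.612 to 1.88). Endothelial-like cells with no zone, a further group (726 normal and 969 fibrotic cells), went from 0.231 to 0.344, a ratio of 1.49 (1.15 to 1.95), and zone 1 held 603 normal but 155 fibrotic cells. That the central vein ratio differs from these was not tested. NK/T-like cells had a ratio of 1.79 for Tlr4, and in central vein cells the 9 macrophage genes listed with the stellate-like cells went from 4.43 to 13.8 per 10000. Their part in the Tlr4 ratio was not tested.

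**Figure D2:**
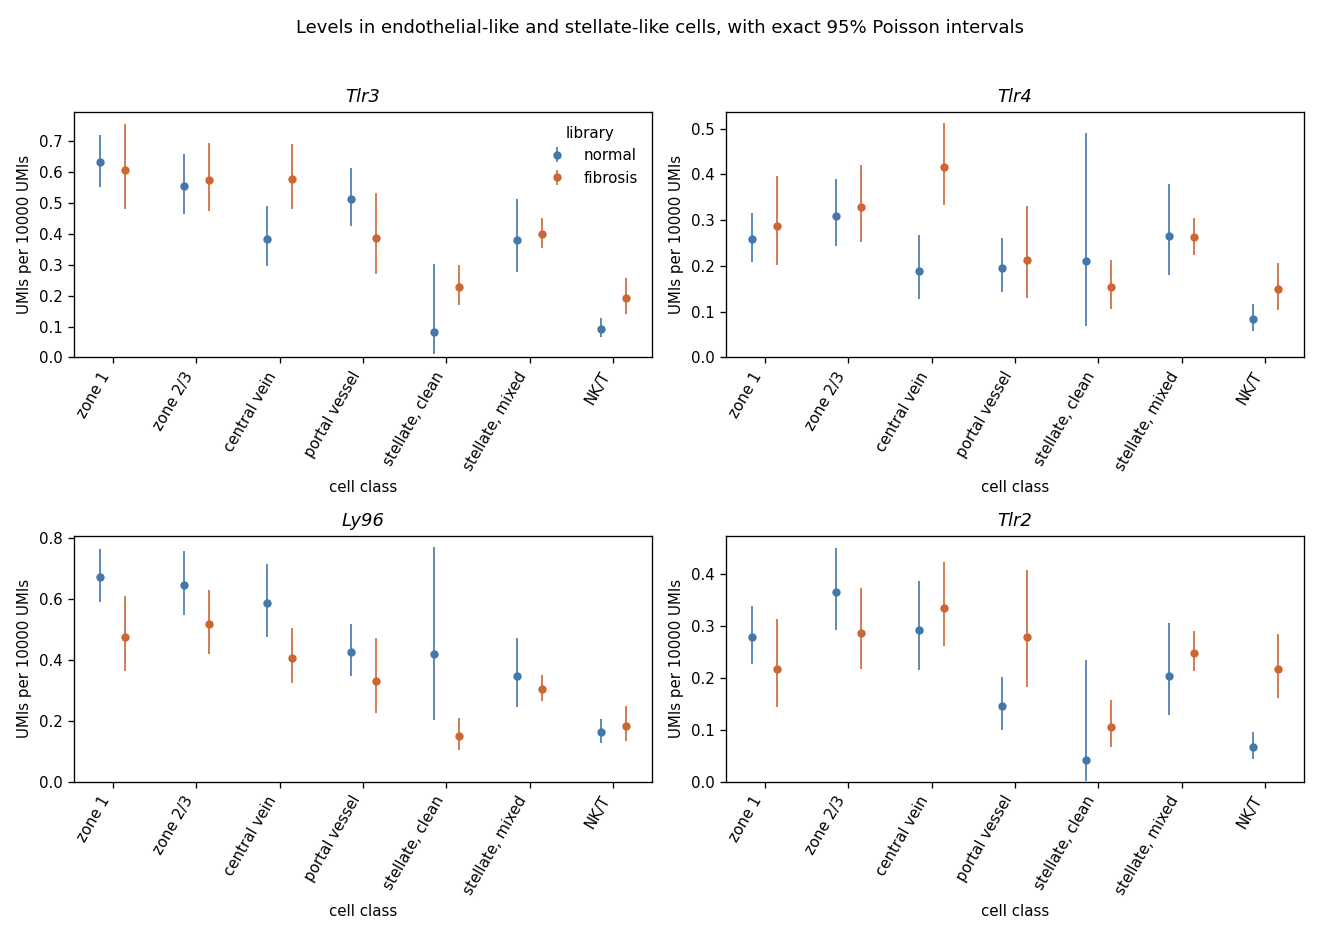
Levels of Tlr3, Tlr4, Ly96 and Tlr2 (UMIs per 10000 UMIs, points with exact 95% Poisson intervals) in 4 endothelial-like zones, in stellate-like sub-clusters below (clean) and past (mixed) the limit for markers of other lineages, and in NK/T-like cells, for both libraries. Tlr4 in central vein cells lies at 0.189 (normal) and 0.416 (fibrosis), and Ly96 points of all 4 zones and of the clean stellate-like cells lie lower in the fibrosis library.

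Stellate-like cells are the main source of scar-forming myofibroblasts, and TLR4 signalling in them is a well-studied route to fibrosis. Over the class, Tlr4 was at 0.256 per 10000 (35 UMIs) in the normal and 0.235 (211 UMIs) in the fibrotic library, a ratio of 0.917 (0.639 to 1.35). Of the stellate-like cells, 93 of 119 in the normal and 232 of 381 in the fibrotic library lay in sub-clusters whose endothelial, NK/T or plasmacytoid dendritic markers were raised past a limit set after seeing the data. The other sub-clusters held less RNA of endothelial cells but were not free of it, with endothelial markers at a summed 37.5 and 21.2 per 10000 against 144 and 131, and with 9 macrophage genes (Clec4f, Vsig4, Cd5l, C1qa, C1qb, C1qc, Lyz2, Csf1r and Adgre1) at a summed 10.4 and 13.1 against 8.08 and 30. In the sub-clusters below the limit Tlr4 was at 0.21 (5 UMIs in 26 cells) and 0.153 (35 UMIs in 149 cells), which was 2.52 times (0.769 to 6.47) and 1.03 times (0.626 to 1.69) the NK/T-like level. Over the class, Ly96 was at 0.358 per 10000 (49 UMIs) in the normal and 0.266 (239 UMIs) in the fibrotic library, a ratio of 0.742 (0.544 to 1.03) that was not called. Below the limit alone it was at 0.42 per 10000 (10 UMIs) in the normal and 0.149 (34 UMIs) in the fibrotic library, a ratio of 0.355 (0.171 to 0.806) in cells where, by the same limits, 5.19% of genes were lower and 6.77% higher, and exceeded NK/T-like cells only in the normal library, by 2.59 times (1.19 to 5.08). In the sub-clusters past the limit, fibrotic levels of Tlr2, Tlr3, Tlr4, Tlr7, Tlr13, Cd14 and Ly96 were 1.71 to 2.44 times those of the sub-clusters below it. In the normal library Ly96 was at 0.345 past the limit against 0.42 below it, and Tlr4 at 0.266 against 0.21.

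Tlr2 (chr3:83836272-83841767, minus strand) was highest in neutrophil-like cells, at 2.07 per 10000 (1.66 to 2.54, 89 UMIs) in the normal and 1.94 (1.44 to 2.55, 50 UMIs) in the fibrotic library. This was 3.05 times (2.33 to 3.98) and 3.08 times (2.18 to 4.29) the Kupffer-like level. In the normal library the classes next in order were migratory dendritic-like cells at 1.62, which did not differ from neutrophil-like cells beyond counting error (ratio 1.28, 0.93 to 1.76), Trem2/Gpnmb macrophage-like cells at 1.53 and classical monocyte-like cells at 1.28. The migratory dendritic-like cluster held Lyz2, a lysozyme gene shared by monocytes, macrophages and neutrophils, at 81.8 per 10000 and Csf1r at 5.79, against 5.79 and 0.456 in normal cDC1-like cells, while C1qa, Clec4f, Cd5l and Vsig4 were at 0.192 to 0.767. The part of other myeloid cells in its Tlr2 and Tlr1 levels was not tested. In fibrosis the Fn1/Olr1 cluster was second, at 1.7 per 10000 (145 UMIs). The cDC2-like cells (the conventional dendritic subset that presents antigen to CD4 T cells) came next at 1.33 per 10000 and were 5.59 times (2.9 to 12.1) cDC1-like cells, the cross-presenting subset. The normal cluster with cDC2 markers was led by Prtn3, Mpo and Elane, genes of granulocyte precursors, so its values are not set against the fibrotic ones.

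Tlr1 (chr5:64924679-64933563, minus strand), the partner of Tlr2, had a different order. Among members with at least 10 UMIs in B-like and NK/T-like cells together, it stood highest above NK/T-like cells in B-like cells, at 0.407 per 10000 (68 UMIs) in the normal and 0.531 (92 UMIs) in the fibrotic library, which was 4.89 times (3.19 to 7.61) and 2.65 times (1.85 to 3.86) NK/T-like cells. B-like cells were 1.43 times as high as Kupffer-like cells in both libraries (1 to 2.03 and 1.05 to 1.95), whereas Tlr2 in B-like cells was 0.115 times (0.06 to 0.203) and 0.34 times (0.23 to 0.491) the Kupffer-like level. In the normal library B-like, migratory dendritic-like and Trem2/Gpnmb macrophage-like cells, at 0.407, 0.532 and 0.62, did not differ between neighbours beyond counting error. In fibrosis classical monocyte-like cells were highest, at 0.706 (153 UMIs), 1.33 times (1.02 to 1.74) the B-like level. Tlr1 was nearly missing from endothelial-like cells, at 11 UMIs in 2282 normal cells (0.00831 per 10000), which was 0.0997 times the NK/T-like level. How much of the NK/T-like Tlr1 was RNA of those cells themselves was not tested. Of 7 RefSeq promoter entries for 6 members (GRCm38.p6), 1 of the 2 entries of Tlr1 held the motif GAGGAAGT, bound by PU.1, a factor of macrophages and B cells, on the gene's strand and at position -23 from the start site. It stands in capitals in the 250 bases before the start, chr5:64933559-64933808 on the minus strand. Both strands were searched, and 2.44% of 32851 promoters of the same length hold this motif.
Tlr1: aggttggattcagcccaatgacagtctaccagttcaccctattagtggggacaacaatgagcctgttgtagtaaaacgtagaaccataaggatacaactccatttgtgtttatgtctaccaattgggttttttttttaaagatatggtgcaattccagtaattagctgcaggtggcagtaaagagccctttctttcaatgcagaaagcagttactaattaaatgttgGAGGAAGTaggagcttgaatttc

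Tlr3 (chr8:45395665-45411080, minus strand, with an antisense gene Gm45542 on the other strand) had the sharpest pattern of the 10. In cDC1-like cells, which take up dead cells and cross-present their antigens, it stood at 4.57 per 10000 (4.17 to 5.01, 461 UMIs) in the normal and 4.65 (4.02 to 5.35, 196 UMIs) in the fibrotic library. The class next in order was zone 1 endothelial-like cells in both libraries, at 0.631 and 0.606, so cDC1-like cells were 7.25 times (6.17 to 8.53) and 7.68 times (5.88 to 10.1) as high. The normal zone 1 class includes the 285 of 603 cells with haemoglobin genes among their leading genes, whose zone is less sure. After thinning to 1000 UMIs, 32.7% (23.5 to 42.9) of 98 normal and 28.6% (16.6 to 43.3) of 49 fibrotic cDC1-like cells held a Tlr3 UMI, against 0.604% and 1.94% of NK/T-like cells. Without thinning the shares were 87.8% and 85.7%, at a median of 10359.5 and 9117 UMIs, against 3.42% and 5.88% of NK/T-like cells. Fibrotic cDC2-like cells held 0.0332 times (0.0157 to 0.0623) the cDC1-like level.

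Endothelial-like cells held the largest number of Tlr3 UMIs in both libraries, 711 (36.6% of all) in the normal and 753 (36.8%) in the fibrotic one. Their level was 0.537 and 0.545 per 10000, 5.77 times (4.16 to 8.22) and 2.84 times (2.1 to 3.93) that of NK/T-like cells. Over all kept cells Tlr3 was at 0.47 and 0.4 per 10000. Kupffer-like cells were lower, at 0.485 times (0.368 to 0.629) and 0.455 times (0.338 to 0.6) the endothelial-like level. Tlr3 was thus the 1 member among those with at least 10 UMIs in both that was lower in Kupffer-like than in endothelial-like cells of both libraries with an interval that excluded 1. Within the normal endothelial-like class, central vein cells were at 0.667 times (0.504 to 0.868) the other zones. In the fibrotic library portal vessel cells were the lowest zone, at 0.66 times the others (0.454 to 0.934). The RefSeq promoter of Tlr3 (chr8:45410381-45410630, minus strand) is printed because 1 gene serves such unlike cells. It held neither GAGGAAGT, nor the interferon-response motif (GAAA, 2 bases of any kind and GAAA again, in 2.98% of promoters), nor the AP-1 motif TGANTCA (6.75%), which says only that these letters are not in the window searched.
Tlr3: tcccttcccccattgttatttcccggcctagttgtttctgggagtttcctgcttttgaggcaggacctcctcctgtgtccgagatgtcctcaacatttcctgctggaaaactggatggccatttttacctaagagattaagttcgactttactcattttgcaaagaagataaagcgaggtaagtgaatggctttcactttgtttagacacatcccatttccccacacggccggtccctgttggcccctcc

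Tlr7 (chrX:167304929-167330558, minus strand) was highest in plasmacytoid dendritic (pDC-like) cells of the normal library, the interferon-producing cells that rely on TLR7 and TLR9, at 1.88 per 10000 (1.62 to 2.17, 183 UMIs). This was 10.1 times (6.9 to 15.3) the B-like and 2.97 times (2.38 to 3.7) the Kupffer-like level, while non-classical monocyte-like cells, next in order at 1.28, did not differ from it beyond counting error (ratio 1.47, 0.959 to 2.36). In the fibrotic library pDC-like cells stood at 1.21 (0.938 to 1.53, 68 UMIs), a ratio of 0.642 (0.479 to 0.853), and classical monocyte-like cells at 1.41 (1.25 to 1.57, 305 UMIs). These fibrotic classes did not differ beyond counting error, with a ratio of 1.17 (0.893 to 1.54). Thinned shares of pDC-like cells with a Tlr7 UMI were 16.7% (11 to 23.8) and 9.62% (4.71 to 17), against 0.604% and 1.79% of NK/T-like cells. Unthinned they were 63.9% and 44.2%, at medians of 6651.5 and 5201.5 UMIs, against 1.81% and 5%. Neutrophil-like cells were lower in Tlr7 than Kupffer-like cells, at 2 UMIs (0.0464 per 10000) in the normal and 7 UMIs (0.271) in the fibrotic library, 0.0732 times (0.00878 to 0.269) and 0.258 times (0.103 to 0.54) the Kupffer-like level.

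Tlr8 (chrX:167242696-167264329, minus strand), next to Tlr7 on the X chromosome, was sparse, with 108 UMIs in the normal and 380 in the fibrotic library. Myeloid-like cells held 74.1% of these UMIs in the normal and 74.2% in the fibrotic library. Unlike Tlr7 it was almost missing from pDC-like cells, at 1 and 0 UMIs, where the limit that a count of 0 allows is 0.0533 per 10000 in the fibrotic library. In the normal library classical monocyte-like cells at 0.303 per 10000 (14 UMIs), Kupffer-like cells at 0.223 (53 UMIs) and Trem2/Gpnmb macrophage-like cells at 0.196 (6 UMIs) did not differ between neighbours beyond counting error. In the fibrotic library Trem2/Gpnmb macrophage-like cells at 0.337 (161 UMIs) did not differ in this way from classical monocyte-like cells at 0.309 (ratio 1.09, 0.816 to 1.47) and were 2.04 times (1.42 to 3.02) the Kupffer-like level. Tlr9 (chr9:106222598-106226883, plus strand) had 28 and 19 UMIs in all, too few for an order. Its RefSeq promoter held the AP-1 letters TGACTCA at position -58. Dendritic-like cells held 17 and 7 of its UMIs, and pDC-like cells alone 9 and 3. Endothelial-like cells held 0 UMIs in either library, which allows up to 0.00227 and 0.00217 per 10000.

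Tlr13 (chrX:106143204-106160493, plus strand), a mouse receptor for bacterial 23S ribosomal RNA that humans lack, was highest in neutrophil-like cells of both libraries. Its level there was 1.21 per 10000 (0.902 to 1.58, 52 UMIs) in the normal and 1.9 (1.4 to 2.51, 49 UMIs) in the fibrotic library. Non-classical monocyte-like cells, next in the normal library at 0.958, did not differ from them beyond counting error (ratio 1.26, 0.725 to 2.29), and Trem2/Gpnmb macrophage-like cells, next in fibrosis, were lower (ratio 1.43, 1.05 to 1.92). In normal Kupffer-like cells it was at 0.26 (62 UMIs), so that neutrophil-like cells were 4.63 times (3.14 to 6.81) and classical monocyte-like cells 3.08 times (1.99 to 4.7) as high. In fibrosis the Kupffer-like level was 0.798 (174 UMIs) and these ratios were 2.38 (1.69 to 3.28) and 1.41 (1.16 to 1.72). NK/T-like cells held 1 Tlr13 UMI in the normal library and 38 in the fibrotic one. The 250 bases before the RefSeq start (chrX:106143025-106143274, plus strand) are shown because Tlr13 was the member with the largest ratio between libraries in myeloid-like cells. None of the motifs searched was found there.
Tlr13: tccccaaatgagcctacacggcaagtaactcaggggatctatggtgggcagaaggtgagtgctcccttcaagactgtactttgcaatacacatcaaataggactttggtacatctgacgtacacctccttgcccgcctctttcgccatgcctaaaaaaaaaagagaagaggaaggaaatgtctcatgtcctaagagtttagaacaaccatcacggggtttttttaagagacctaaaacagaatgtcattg

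**Figure D3:**
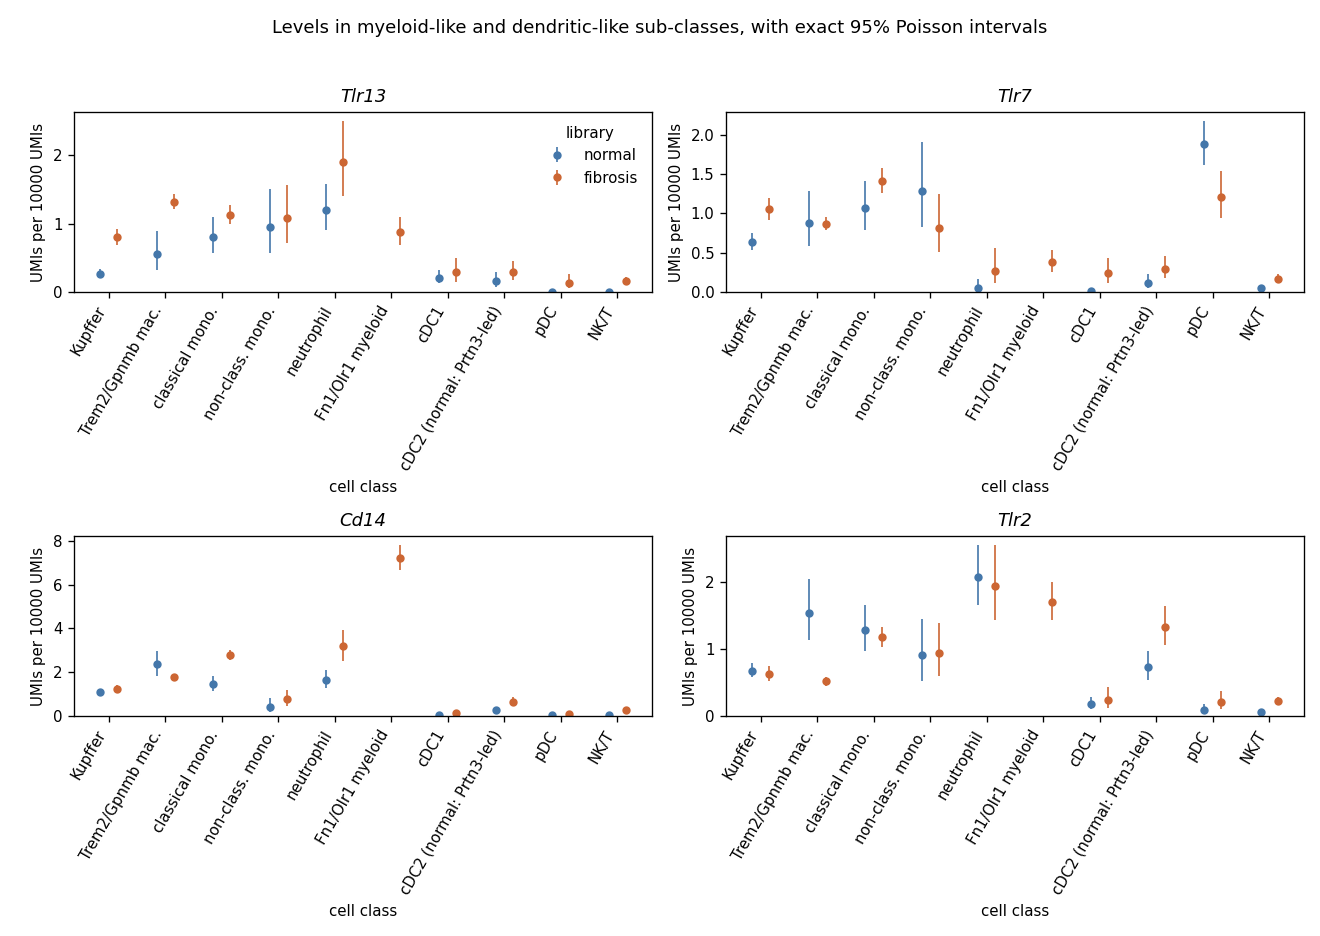
Levels of Tlr13, Tlr7, Cd14 and Tlr2 (UMIs per 10000 UMIs, points with exact 95% Poisson intervals) in myeloid-like and dendritic-like sub-classes and NK/T-like cells of the normal and the fibrosis library; the normal points of the cDC2 column are the Prtn3-led cluster. Tlr13 lies at 0.26 in normal and 0.798 in fibrotic Kupffer-like cells, Cd14 reaches 7.22 in the Fn1/Olr1 cluster, and Tlr7 of pDC-like cells lies lower in the fibrosis library.

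For the comparison of the libraries a member was called higher or lower in fibrosis where the ratio of its levels was at least 2 or at most 0.5, its interval excluded 1 and both libraries together held at least 10 UMIs. In myeloid-like cells Tlr13 alone of 10 members was called higher, where 5.59% of 13462 genes were. It stood at 0.494 per 10000 (186 UMIs) in the normal and 1.15 (1201 UMIs) in the fibrotic library, a ratio of 2.32 (1.99 to 2.72). With a mitochondrial limit of 5%, which left 295 normal and 430 fibrotic myeloid-like cells, the Tlr13 ratio was 1.81 and no member was called, and per cell instead of per UMI 6 of 10 members were called higher, where 52.1% of all genes were (median ratio over all genes 2.09). No member was called lower, where 11.1% of genes were. Cd14 was at 1.26 and 2.33 per 10000, a ratio of 1.84 (1.67 to 2.04), Tlr1 at 0.271 and 0.456, a ratio of 1.68 (1.36 to 2.11), and Tlr7 at 0.672 and 0.958, a ratio of 1.43 (1.24 to 1.64). Tlr4, at 0.55 and 0.547, had a ratio of 0.996 (0.848 to 1.17), and Ly96, at 0.558 and 0.42, one of 0.754 (0.638 to 0.893). The median ratio of the members was 1.13, beside 0.987 over all genes.

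The myeloid-like class was made of different clusters in each library. Kupffer-like cells were 444 of 777 normal cells, while in fibrosis classical monocyte-like (256), Trem2/Gpnmb macrophage-like (248) and Kupffer-like (216) cells were of like number. Within Kupffer-like cells alone Tlr13 was the 1 member of 9 called, with a ratio of 3.06 (2.28 to 4.16), where 4.53% of genes were higher and 8.29% lower, and within Trem2/Gpnmb macrophage-like cells, at 0.555 and 1.32 per 10000, it was 2.38 (1.48 to 4.12). The normal Kupffer-like cells included 171 at a median of 1657 UMIs and 58 with the cycling genes Ube2c and Nusap1 among their leading genes. The fibrotic ones had a median of 9809.5 UMIs, and fibrotic cycling sub-clusters were left out. Classical and non-classical monocyte-like and neutrophil-like cells had Tlr13 ratios of 1.41 (0.992 to 2.04), 1.13 (0.605 to 2.18) and 1.57 (1.04 to 2.37). In Kupffer-like cells Tlr7 had a ratio of 1.66 (1.34 to 2.05) and Cd14 one of 1.16 (0.971 to 1.38). The Cd14 ratio was larger in classical monocyte-like cells, at 1.91 (1.48 to 2.49), and in neutrophil-like cells, at 1.93 (1.38 to 2.68). In neutrophil-like cells the macrophage genes went from 21.9 to 49.7 per 10000, endothelial markers from 25.3 to 44 and stellate markers from 2.16 to 10.3, and their part in the Cd14 ratio was not tested. In Trem2/Gpnmb macrophage-like cells, a state described in scarred liver, Tlr2 went from 1.53 to 0.514 per 10000, a ratio of 0.335 (0.244 to 0.468), and Tlr3 from 0.359 to 0.155, a ratio of 0.432 (0.228 to 0.903). Among all genes 5.27% were called higher and 13.5% lower in this class. The normal cells of that name were 55 and were led by Mmp13, Mmp12 and Cd207, while of the fibrotic cells 177 lay in a cluster led by Syngr1, Gpnmb and Atp6v0d2 and 71 in one led by Cd207 and Mmp13. In classical monocyte-like cells Tlr1, Tlr3 and Tlr4 were called higher (3 of 9 members, 10.1% of genes) and none lower (8.36%), at 5.43 (2.44 to 15), 6.29 (1.67 to 53.1) and 3.48 (1.54 to 9.72), from 6, 2 and 6 UMIs in the normal library. In the same cells endothelial markers went from 11.9 to 20.2 per 10000, stellate markers from 1.23 to 5.36 and NK/T markers from 0.758 to 2.99, and of the macrophage genes C1qa went from 2.32 to 15.8, Cd5l from 1.06 to 4.47 and Lyz2 from 200.2 to 87.3. Their part in the calls was not tested. Fibrotic Tlr3 there was 1.42 times (0.949 to 2.14) the NK/T-like level. The larger fibrotic cluster of that name, 230 cells, was led by Ifnb1 and Ifnl2, interferon genes that TLR signalling can induce. Its leading genes held the monocyte markers F13a1, Chil3 and Ms4a4c. They also held Ms4a7 and C3ar1, which were among the leading genes of both fibrotic Trem2/Gpnmb macrophage-like clusters. Of the 10 classical monocyte markers 6 were raised in it, against 8 in the normal cluster, so the cells compared under this name were unlike.

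In dendritic-like cells 0 of 9 members were called in either direction, where 8.85% of genes were higher and 6.41% lower. Tlr3 had a ratio of 0.83 (0.703 to 0.977) and Tlr7 one of 0.873 (0.681 to 1.11). The member median was 1.15, the same as over all genes. These values depended on the mitochondrial limit. At 5%, which left 85 normal and 57 fibrotic dendritic-like cells, Cd14 was at 7.05, Tlr2 at 3.59, Tlr1 at 3.52 and Tlr7 at 3.42 times the normal level and were called higher, where 10.7% of genes were, and Tlr3 at 0.453 times was called lower, where 6.4% were. The normal class included the 88 cells of the Prtn3-led cluster and 63 migratory dendritic-like cells against 9 in fibrosis, so its make-up differed between libraries. Within cDC1-like cells the Tlr3 ratio was 1.02 (0.856 to 1.2). Within pDC-like cells Tlr3, at 1 and 9 UMIs, was called higher, at 15.6 (2.16 to 682), where 10.1% of genes were higher and 6.2% lower. The fibrotic pDC-like level, 0.16 per 10000, lay at 0.835 times (0.359 to 1.73) that of NK/T-like cells, and in the same class the macrophage genes went from 3.53 to 20.7 and the endothelial markers from 13.4 to 25.9 per 10000. Their part in the Tlr3 call was not tested.

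**Figure D4:**
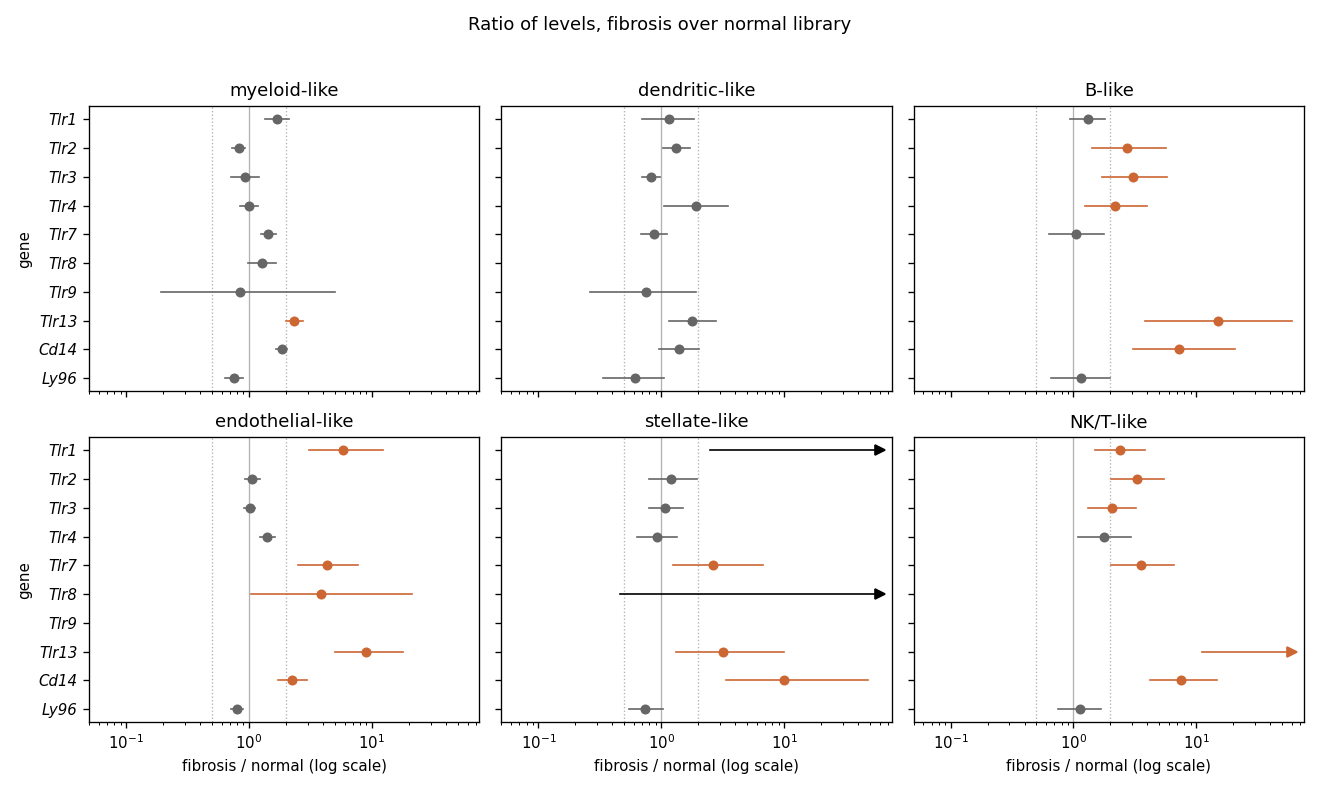
Ratio of the level of each gene in the fibrosis over the normal library (log axis, points with exact conditional 95% intervals, dotted lines at 0.5 and 2) in the 5 classes and in NK/T-like cells; orange marks genes called higher, black arrows have 0 UMIs in the normal library (Tlr1 in stellate-like cells was called too), intervals are cut at 60, and the orange arrow is a ratio of 66. Tlr13 is orange in each panel but the dendritic-like one, and Cd14 in all but the myeloid-like and dendritic-like ones.

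Outside the phagocytes and dendritic-like cells the calls were more numerous. In B-like cells 5 of 8 members were called higher (16.3% of genes) and 0 lower (8.43%): Tlr13 at 14.9 (3.8 to 129), Cd14 at 7.22 (3.07 to 20.7), Tlr3 at 3.07 (1.72 to 5.77), Tlr2 at 2.74 (1.42 to 5.62) and Tlr4 at 2.18 (1.24 to 3.96). Tlr1 had a ratio of 1.3 (0.942 to 1.81). The count of 5 fell to 3 with no mitochondrial limit (12.2% of genes), at resolutions of 0.4 and 1.5 (12% and 11.6%) and with 30 principal components (11.3%). In the same cells the summed endothelial markers went from 22.1 to 68.2 per 10000 and the B cell markers from 99.2 to 52.4, and their part in the calls, Tlr3 and Tlr4 included, was not tested. In endothelial-like cells 5 of 9 were called higher (7.59% of genes) and 0 lower (8.94%): Tlr13 at 9.02 (4.97 to 18), Tlr1 at 5.83 (3.06 to 12.2), Tlr7 at 4.28 (2.51 to 7.73), Tlr8 at 3.83 (1.03 to 21.2) and Cd14 at 2.23 (1.7 to 2.95). Tlr3, Tlr4 and Ly96, past 2 times the NK/T-like level in endothelial-like cells of both libraries, were not called, with ratios of 1.01 (0.914 to 1.13), 1.4 (1.22 to 1.62) and 0.795 (0.715 to 0.884). Tlr2, past it only in the normal library, had a ratio of 1.06 (0.923 to 1.22). With a mitochondrial limit of 5% the endothelial-like calls fell from 5 to 3 (6.8% of genes), and the Cd14 ratio was 1.87. In stellate-like cells 4 of 9 were called higher (6.13% of genes) and 0 lower (5.61%). Tlr1 had 0 UMIs in the normal and 62 in the fibrotic library, at least 3.14-fold higher against the 3 UMIs that a count of 0 allows, and Cd14 had a ratio of 9.94 (3.35 to 48.6), Tlr13 one of 3.19 (1.33 to 10) and Tlr7 one of 2.63 (1.24 to 6.68). In stellate-like cells below the limit for markers of other lineages 0 were called higher (6.77% of genes) and 1 lower (5.19%). There Cd14 was at 2.51, Tlr7 at 1.57 and Tlr13 at 1.36. With a mitochondrial limit of 5%, 0 were called higher (5.13%).

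NK/T-like cells moved in the same direction, and their values bear on these calls. In them 6 of 8 members were called higher (10.8% of genes) and 0 lower (7.6%): Tlr13 at 66 from 1 UMI in the normal library (lower bound 11.1), Cd14 at 7.56 (4.18 to 14.6), Tlr7 at 3.56 (2.01 to 6.53), Tlr2 at 3.28 (2.02 to 5.44), Tlr1 at 2.4 (1.51 to 3.85) and Tlr3 at 2.06 (1.31 to 3.25). In fibrosis the level of Cd14 was 0.26 per 10000 in both B-like and NK/T-like cells, a ratio of 1 (0.665 to 1.49), and Tlr13 in B-like cells was 1.11 times (0.665 to 1.83) NK/T-like cells. Fibrotic endothelial-like cells held Tlr1, Tlr7, Tlr13 and Cd14 at 0.242, 0.331, 0.505 and 0.507 times the NK/T-like level. The summed level of the 9 macrophage genes, each with UMIs in every class, was 6.3 per 10000 in normal and 27.6 in fibrotic NK/T-like cells. It was 8.25 and 34.5 in B-like, 4.5 and 14.8 in endothelial-like and 8.48 and 25.7 in stellate-like cells, beside 273 and 304 in Kupffer-like cells. In NK/T-like cells endothelial markers went from 46.8 to 67.9 per 10000, stellate markers from 1.84 to 8.52 and NK/T markers from 102 to 58.6. The part of RNA of other cells in the calls was not tested. When the NK/T-like level of the same library was subtracted first, an alternative chosen after seeing the data, the ratio of Tlr13 in myeloid-like cells was 2.001. The calls fell from 5 to 2 (Tlr3 and Tlr4) in B-like cells, from 5 to 1 in endothelial-like cells and from 4 to 0 in stellate-like cells. The 1 left in endothelial-like cells was Tlr8, with 0.00017 per 10000 in fibrosis and no positive level in the normal library, so it has no ratio. The subtraction takes free RNA to be the same share of UMIs in each class. Fibrotic medians were 2596 UMIs in NK/T-like, 7555 in endothelial-like and 20318 in stellate-like cells. Whether too much was subtracted from the deeper classes was not tested.

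Other genes of the pathway were read from a list of 59 that held receptors, adaptors, trafficking proteins, LPS carriers, transcription factors, brakes and response genes. In myeloid-like cells 57 had enough UMIs, 2 were called higher and 5 lower, beside the 5.59% and 11.1% of all genes above, with a median ratio of 1.06. Cd36, a scavenger receptor that can act with TLR2, went from 1.22 to 10.9 per 10000, a ratio of 8.9 (8.1 to 9.79), and Tnfaip3, the brake A20, from 0.82 to 2.27, a ratio of 2.77 (2.46 to 3.13). Neither was confined to these cells. Cd36 was called higher in all 5 classes and Tnfaip3 in 4 of them, all but dendritic-like cells, and NK/T-like cells went from 1.05 to 5.55 per 10000 for Cd36 and from 3.64 to 4.74 for Tnfaip3. The lower genes were Il1b, the cytokine interleukin-1 beta, at 0.219 (0.208 to 0.23), Tlr12, a profilin sensor, at 0.345 (0.285 to 0.417), Acod1, the itaconate enzyme, at 0.446 (0.368 to 0.541), Lbp, the plasma LPS-binding protein, at 0.464 (0.359 to 0.6), and Ptgs2, the inducible cyclooxygenase, at 0.466 (0.411 to 0.529). So 3 of 8 response genes were lower (11.1% of all genes) and none higher (5.59%), and 0 of 18 adaptors and kinases and 0 of 7 transcription factors were called. These calls are for the class as a whole. Its neutrophil-like cells were 163 in the normal and 118 in the fibrotic library and its Trem2/Gpnmb macrophage-like cells 55 and 248. The part of this shift in the calls was not tested.

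In endothelial-like cells 16 of 56 list genes were called higher and 0 lower, beside 7.59% and 8.94% of all genes. The largest ratios were those of Il10, an anti-inflammatory cytokine, at 8.3 (4.15 to 18.8), Ly86, the partner of the TLR homologue RP105, at 4.67 (4 to 5.49), Tnfaip3 at 4.66 (4.25 to 5.11) and Ticam2, the TLR4 bridging adaptor TRAM, at 4.55 (2.09 to 11.3). Hsp90b1, the chaperone gp96 that folds most Toll-like receptors, went from 6.46 to 24.9 per 10000, a ratio of 3.85 (3.76 to 3.94). Tnf was at 3.39 (2.62 to 4.43), Ptgs2 at 3.14 (1.99 to 5.13), the transcription factor Irf5 at 2.72 (2.17 to 3.44), the NF-kB inhibitor Nfkbia at 2.67 (2.59 to 2.75) and Tlr6 at 2.57 (1.42 to 4.89). NK/T-like cells were at 7.35 and 17.5 per 10000 for Hsp90b1, at 2.78 and 7.65 for Nfkbia, at 0.201 and 1.4 for Ly86 and at 0.0196 and 0.243 for Il10, so these levels were higher in fibrosis there as well. Tnf in NK/T-like cells was at 0.488 and 0.26 per 10000, against 0.0574 and 0.195 in endothelial-like cells. Tnf and Il10 were also called higher in B-like and stellate-like cells, and Il10 in dendritic-like cells. In dendritic-like cells 6 of 57 list genes were higher and 2 lower, beside 8.85% and 6.41% of all genes. In B-like cells 11 of 54 were higher and 0 lower, beside 16.3% and 8.43%, and in stellate-like cells 7 of 56 and 0, beside 6.13% and 5.61%.

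The genes whose levels followed each member most closely were found over the 42 classes and sub-classes with at least 50 cells, which share 2 libraries and their free RNA. For Tlr13 they were Pla2g7, Ccl6 and Cd300lb (Pearson r of 0.939, 0.935 and 0.931), and for Cd14 Fcgr3, Pla2g7 and Ccl6 (0.892, 0.888 and 0.882), so that both members had Pla2g7 and Ccl6 among their 3. For Tlr8 they were Fcgr3, Slc11a1 and Csf1r (0.916, 0.893 and 0.89). Tlr7 had Atp13a2, Cybb and Lair1 (0.928, 0.897 and 0.891), and Tlr2 had Ccrl2, Nlrp3 and Igsf6 (0.906, 0.876 and 0.876). Ly96 had Slc7a7, Itm2b and Tmcc3 (0.894, 0.835 and 0.817), Tlr1 had Lpxn, Abcg3 and Ctss (0.885, 0.842 and 0.835), and Tlr4 had Tfe3, Galc and Cd84 (0.864, 0.856 and 0.853). Tlr3 had the lowest values, with Rtl8a, Rtl8b and Trim35 at 0.776, 0.768 and 0.767. Tlr9, with 50 UMIs in all, had Pgls, Rnase6 and Tnni2 (0.885, 0.863 and 0.862).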

How the data were processed

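Droplet 3′ RNA libraries (10x Genomics, version 3 chemistry) were made from 1 normal and 1 fibrotic mouse. Per the submitters' processing notes, reads were processed with Cell Ranger 3.0.1 on mm10. The deposited values were raw UMI counts per gene and cell, 44062632 UMIs over 8130 normal and 53288463 over 6437 fibrotic cells.

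Cells with under 200 genes or over 10% mitochondrial UMIs were left out. Each library was clustered alone (scanpy 1.11.5, Leiden through leidenalg 0.10.2, 2000 variable genes, 10 principal components, 20 neighbours, resolution 0.8, and 1.5 with 20 components for sub-clusters), with the 10 genes and 59 pathway genes held out. A class needed 3 markers raised at least 2 times. Names were rebuilt here, and sub-cluster settings and the limit for sub-clusters with raised markers of other lineages were chosen after seeing the data. Such sub-clusters were left out of the myeloid and dendritic classes and kept in the stellate class. Also left out of the myeloid and dendritic classes were 91 cycling and 83 basophil-like or mast-like cells in fibrosis. The same was done with 29 normal cells whose leading genes were of another class. Scrublet called 3 and 1 cells as doublets, which was taken as a failed call, so none were removed.

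Summed counts gave levels per 10000 UMIs with exact Poisson intervals and ratios with exact conditional intervals (scipy 1.17.1). With 1 library per condition no test across animals exists, and no p-value is given. Shares of cells were computed after thinning to 1000 UMIs, with exact binomial intervals, leaving out shallower cells (in fibrosis 5 myeloid-like, 17 B-like, 7 endothelial-like, 1 stellate-like and 9 NK/T-like, and 1 B-like and 1 NK/T-like in the normal library). Classes under 20 cells entered no comparison. Likeness used Pearson's r of log2 levels with a pseudocount of 0.1, naming the 3 genes with the highest r. Scripts were tested on simulated data. The members and lists were chosen with earlier results of these data known. Gene positions are GENCODE M21 and promoter sequences RefSeq (GRCm38.p6), where 6 of the 10 genes had an entry.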

Additional observations from a re-analysis of the deposited data

Results flagged for a closer look

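Tlr2 and Tlr3 were called in opposite directions in different classes. Tlr2 had a ratio of fibrosis over normal of 2.74 in B-like cells and 0.335 in Trem2/Gpnmb macrophage-like cells. Tlr3 had ratios of 3.07 in B-like, 6.29 in classical monocyte-like and 15.6 in pDC-like cells, and of 0.432 in Trem2/Gpnmb macrophage-like cells. The differences between these classes were not tested. The normal counts behind the Tlr3 ratios were 2 UMIs in classical monocyte-like and 1 UMI in pDC-like cells, whose fibrotic Tlr3 level was 0.835 times that of NK/T-like cells while their macrophage genes went from 3.53 to 20.7 per 10000, and Tlr2 and Tlr3 had ratios of 3.28 and 2.06 in NK/T-like cells.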

How the results depend on the processing

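No paired analysis was possible because each condition had 1 library. Of 174 counts of members under alternatives 140 stayed within 1.5 times. Calls higher in fibrosis, reported as 1 in myeloid-like, 0 in dendritic-like, 5 in B-like, 5 in endothelial-like and 4 in stellate-like cells, moved as follows, and the cause was not tested. Shares in brackets are those of all genes called in that direction under the same alternative. A mitochondrial limit of 5% gave 0 in myeloid-like (8.09%), 4 in dendritic-like (10.7%, and 1 lower, 6.4%), 3 in endothelial-like (6.8%) and 0 in stellate-like cells (5.13%), and left no B-like cells. No mitochondrial limit gave 2 in myeloid-like (6.44%) and 3 in B-like cells (12.2%). UMIs per cell gave 6 in myeloid-like cells (52.1%) and 1 lower in dendritic-like cells (10.9%). A call at 1.5 times gave 3 in myeloid-like (10.5%) and 2 in dendritic-like cells (18.9%). Removing the top 5% of doublet scores gave 1 in dendritic-like cells (8.9%), resolutions of 0.4 and 1.5 gave 1 in dendritic-like (8.87% and 8.45%) and 3 in B-like cells (12% and 11.6%), and 30 principal components gave 3 in B-like cells (11.3%). Of alternatives chosen after seeing the data, keeping mixed sub-clusters gave 1 in dendritic-like cells (7.62%), stellate-like cells below the limit for markers of other lineages gave 0 higher (6.77%) and 1 lower (5.19%), and subtracting the NK/T-like level gave 2 in B-like (12.1%), 1 in endothelial-like (4.41%) and 0 in stellate-like cells (5.36%). Of 192 alternative values of ratios called in these 5 classes, 1 lay on the other side of 1, Cd14 in B-like cells at 0.0321 after that subtraction. Of 441 values of ratios not called in them 34 did. Ratios called in sub-classes or in NK/T-like cells, and that of Tlr1 in stellate-like cells, are not among these values. Ratios that the subtraction left without a positive value are not counted.

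After thinning to 1000 UMIs, members whose share of cells exceeded that of NK/T-like cells numbered, in the normal and fibrotic library, 6 and 5 in myeloid-like (8.92% and 7.18% of all genes), 4 and 1 in dendritic-like (7.74% and 4.8%), 1 and 0 in B-like (5.03% and 3.32%), 4 and 2 in endothelial-like (15.5% and 10.8%) and 1 and 0 in stellate-like cells (8.42% and 8.16%). In the same order they were 9 and 7 (11.4% and 8.82%), 6 and 3 (9.65% and 5.97%), 2 and 1 (6.93% and 3.83%), 4 and 3 (18.9% and 13.4%) and 1 and 0 (11.7% and 11%) at 2000 UMIs, and 9 and 9 (18.4% and 63.8%), 9 and 6 (46.9% and 41.8%), 2 and 1 (4.11% and 2.48%), 5 and 4 (42.2% and 63.8%) and 4 and 9 (61.5% and 89.4%) without thinning. Cells without any macrophage UMI were not compared, since 6 fibrotic endothelial-like and 1 fibrotic stellate-like cells had none. Tlr9, with 28 and 19 UMIs, was too sparse to order.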

Other observations

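Cd14 was also high in an epithelial class. Cholangiocyte-like cells, which line the bile ducts, held it at 0.59 per 10000 in the normal (183 UMIs) and 0.622 in the fibrotic library (112 UMIs), a ratio of 1.05 (0.826 to 1.34), and their Tlr3 level was 0.496 and 0.516. In mesothelial-like cells, the covering layer of the liver, Cd14 stood at 0.122 (7 UMIs) and 0.866 (149 UMIs), a ratio of 7.12 (3.37 to 18), beside 7.56 in NK/T-like cells. In portal fibroblast-like cells Tlr4 was at 0.292 (10 UMIs) in the normal and 0.0906 (17 UMIs) in the fibrotic library, a ratio of 0.31 (0.134 to 0.758).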
